A study of Macaca mulatta with 136 samples.

Results

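The genes described here are the 10 genes of the smooth muscle contractile apparatus ACTA2, MYH11, TAGLN, CNN1, DES, LMOD1, ACTG2, MYLK, SMTN and SYNPO2. They were found by their gene symbol among the 19422 gene identifiers of the tables, where 11 entries carry these 10 symbols. TAGLN has a second entry with 37 estimated counts over all libraries, so its other entry, with nearly all of the counts, was used. RNA was sequenced from 2 mm punches of neural retina and of RPE/choroid, the retinal pigment epithelium with the vascular layer behind it. The punches came from the postmortem right (OD) and left (OS) eyes of 2 adult rhesus macaques, RM03 and RM04. The 2 animals were of different ages, and the labels do not say which was older. Each of the 2 tissues was sampled at the fovea/macula, the perimacula, a nasal location and the temporal periphery, which gave 8 groups of 4 eyes and 32 libraries. The labels name no allele, transgene or agent for any group. The eyes of an animal share its genotype and history, so 4 eyes stand for 2 animals, and each library is a mixture of all cells of its punch. In such bulk samples fewer cells of a type and less RNA per cell cannot be told apart.

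Smooth muscle shortens when myosin heads pull on actin filaments. Calcium and calmodulin activate myosin light chain kinase, which phosphorylates the myosin light chains, and a phosphatase reverses this step. Calponin, transgelin, smoothelin and leiomodin bind the actin filament, while desmin and the dense bodies tie the filaments to each other and to the membrane. In the eye these genes as a set mark the muscle coat of arteries and arterioles and, to a lesser degree, the pericytes of capillaries. In the choroid of primates they also mark smooth muscle cells outside vessel walls. The level of a single gene in a punch does not show which cells it came from.

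The libraries held between 42448891 and 78574034 estimated counts, and levels are given as CPM, the estimated count scaled to the same total in each library. The lowest count of any contractile gene in an RPE/choroid library was 206, for CNN1 at the periphery, whereas CNN1 and ACTG2 rested on 2 to 51 counts per library in retina. The tissue labels were checked against markers. The 7 RPE markers found summed to 3067 to 21418 CPM in RPE/choroid and to 366 to 2844 CPM in retina, and the 9 rod (photoreceptor) markers to 47.2 to 959 CPM and to 4058 to 28096 CPM, with no overlap between the tissues. Among the RPE/choroid libraries 6 stood apart by 7 Schwann cell (peripheral nerve) markers, which summed to 161 to 233 CPM in the other 10. These were the 4 periphery libraries, with 4277, 11854, 549.8 and 1005 CPM, and the perimacula of the right eye of RM03 and of the left eye of RM04, with 6642 and 1714 CPM. All periphery libraries were sequenced on a flow cell of their own, so in every comparison with the periphery the location and the flow cell cannot be told apart.

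In RPE/choroid the contractile genes were highest at the fovea/macula and lowest at the periphery. All 10 were differentially expressed between these locations at an adjusted p under 0.05, and all 10 were higher at the fovea/macula. Of the 15674 genes tested, 21.2% were called in this direction. The median log2 fold change was 2.57 over the 10 genes and -0.06 over all genes tested. The 4 foveal libraries lay above all 4 peripheral libraries for 9 of the 10 genes, the exception being SMTN, where 11.3% of all genes tested were apart in this direction. With the eyes in the order RM03 OD, RM03 OS, RM04 OD and RM04 OS, which is kept throughout, the values of each gene follow by its role. Tests are edgeR quasi-likelihood tests with Benjamini-Hochberg adjustment over all genes tested, and ± with a mean marks the SD over 4 eyes.

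**Figure D1:**
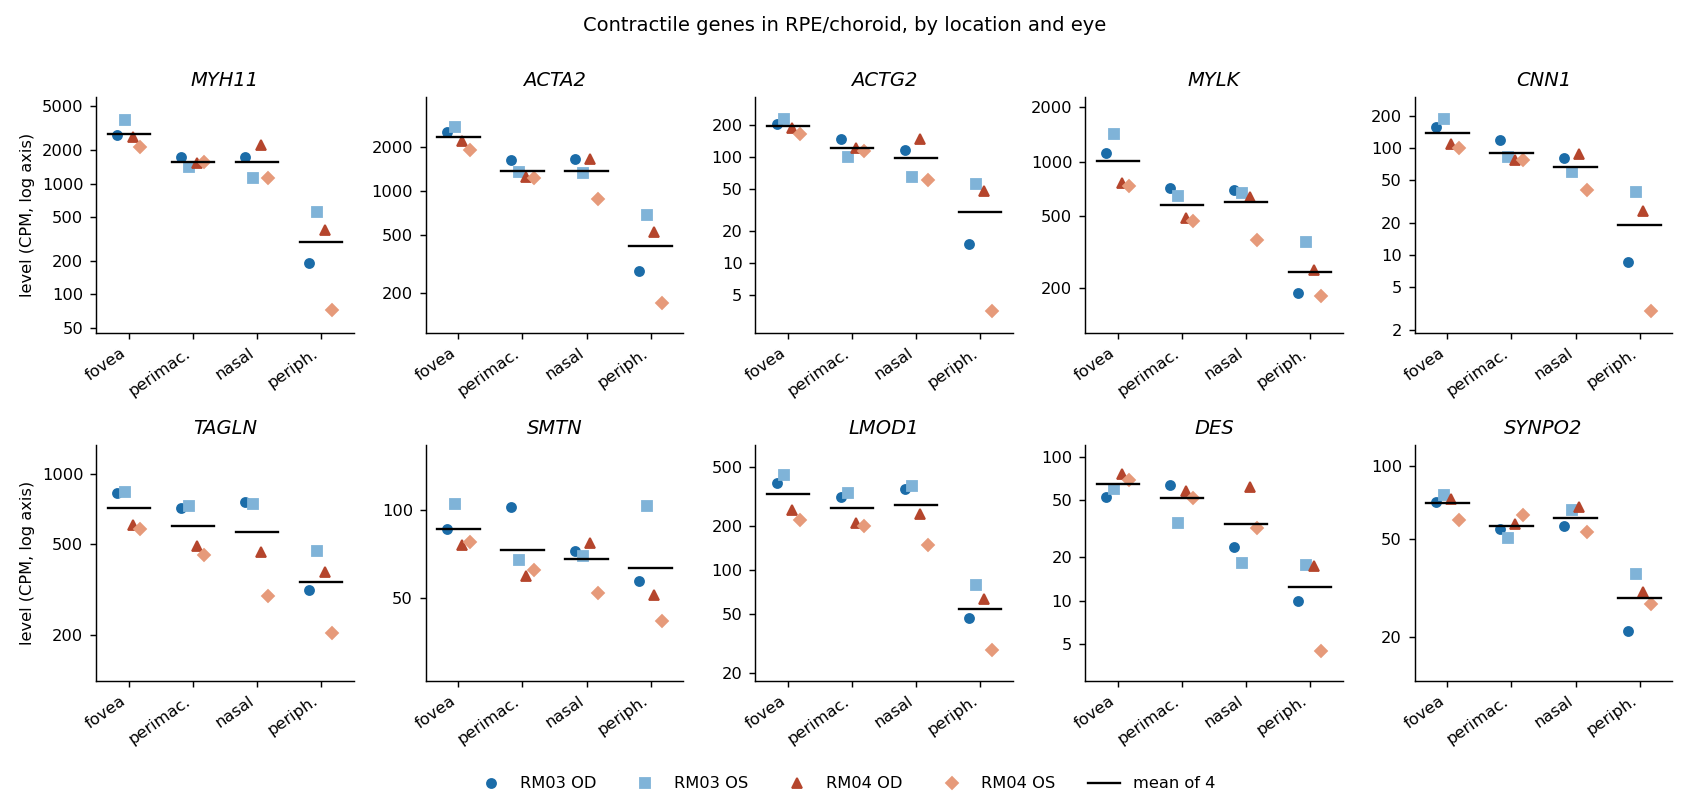
Level of each contractile gene in RPE/choroid in CPM on a log axis, by location. Points are the 4 eyes, coloured by animal, and black lines are the means of 4. The fovea/macula is highest and the periphery lowest for most genes, and the 4 peripheral eyes are spread widely for MYH11, ACTG2 and CNN1.

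MYH11 (ENSMMUG00000010367), the smooth muscle myosin heavy chain, had 2727, 3766, 2640 and 2150 CPM at the fovea/macula. At the periphery it had 190, 548, 381 and 71.3 CPM. The groups did not overlap, and the peripheral value of the left eye of RM04 was the lowest of all. MYH11 had the largest fold change of the 10 genes, a log2 fold change of 3.39 (SE 0.50, adjusted p = 0.000317). The ratio within an eye ran from 6.87 to 30.1. MYLK (ENSMMUG00000014818), the kinase of the myosin light chains, had 1113, 1419, 762 and 733 CPM at the fovea/macula and 187, 359, 251 and 180 CPM at the periphery. Both eyes of RM03 were above both eyes of RM04 at the fovea/macula, and no peripheral library reached a foveal one. The log2 fold change was 2.13 (SE 0.20, adjusted p = 2.16e-05).

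The actins of smooth muscle moved with the myosin. ACTA2 (ENSMMUG00000009341), the alpha actin of vascular smooth muscle, had 2558, 2771, 2218 and 1906 CPM at the fovea/macula against 284, 687, 525 and 169 CPM at the periphery. The lowest foveal eye was above the highest peripheral eye, and the log2 fold change was 2.64 (SE 0.35, adjusted p = 0.000169). ACTG2 (ENSMMUG00000017683), the gamma actin best known from visceral smooth muscle, had 203, 228, 187 and 163 CPM at the fovea/macula against 15.01, 55.5, 47.2 and 3.46 CPM at the periphery. Its groups were also apart, and its peripheral eyes differed among themselves more than its foveal eyes, with a coefficient of variation of 82.5% against 13.98%. The log2 fold change of ACTG2 was 2.82 (SE 0.64, adjusted p = 0.00456). The actins are closely related genes, so reads could have been divided between them in the quantification, which could not be checked here. The level of ACTG2 is uncertain for that reason. ACTG2 had 2.05% to 9.63% of the ACTA2 level over the 16 RPE/choroid libraries, taken as a ratio of estimated counts that are not divided by gene length.

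Among the proteins that bind the actin filament, CNN1, LMOD1, TAGLN and SMTN differed in the size of the change. CNN1 (ENSMMUG00000001473), the smooth muscle calponin, had 158, 186, 108 and 100.4 CPM at the fovea/macula against 8.52, 38.6, 25.5 and 2.98 CPM at the periphery (log2 fold change 2.99, SE 0.59, adjusted p = 0.00212). LMOD1 (ENSMMUG00000001923), leiomodin, which nucleates actin filaments, had 387, 443, 254 and 217 CPM against 47.1, 78.5, 63.6 and 28.4 CPM, a log2 fold change of 2.67 (SE 0.24, adjusted p = 1.70e-05). Neither gene overlapped between the locations. TAGLN (ENSMMUG00000002058), transgelin, changed less, with 831, 839, 602 and 580 CPM against 314, 464, 378 and 204 CPM and a log2 fold change of 1.19 (SE 0.18, adjusted p = 0.000403). Its groups were apart. SMTN (ENSMMUG00000004675), smoothelin, had 86.2, 105.3, 76.4 and 78.1 CPM against 57.4, 103.8, 51.3 and 41.6 CPM. The peripheral left eye of RM03 was above 3 of the 4 foveal eyes, so the groups overlapped, and the log2 fold change was 0.62 (SE 0.21, adjusted p = 0.0353). With the eye in place of the monkey as the replicate block, that is, in the paired analysis, SMTN was no longer called (log2 fold change 0.63, adjusted p = 0.0525), nor was it without either eye of RM04 (adjusted p = 0.158 and 0.199).

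The remaining genes tie the filaments together. DES (ENSMMUG00000017933), desmin, the muscle intermediate filament, had 52.7, 60.3, 76.2 and 68.8 CPM at the fovea/macula against 9.89, 17.7, 17.5 and 4.43 CPM at the periphery, and the log2 fold change was 2.50 (SE 0.40, adjusted p = 0.00054). DES differed from most of the others in being higher at the fovea/macula in RM04 than in RM03. SYNPO2 (ENSMMUG00000008702), an actin-binding protein of dense bodies and Z-discs, had 71.4, 76.3, 73.4 and 59.9 CPM against 21.2, 36.3, 30.5 and 27.2 CPM, with no overlap. Its log2 fold change was 1.41 (SE 0.16, adjusted p = 6.01e-05), and its peripheral eyes were closer to each other than those of any other of the 10 genes, with a coefficient of variation of 21.9%.

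At the perimacula and the nasal location the contractile genes lay between the extremes. Against the periphery, 9 of the 10 genes were higher at the perimacula, where 17.7% of all genes were called in that direction, and the same number was higher at the nasal location, where the share of all genes was 21.8%. SMTN was the exception in both, with log2 fold changes of 0.28 (SE 0.21, adjusted p = 0.334) and 0.31 (SE 0.22, adjusted p = 0.268). Without the right eye of RM03 7 genes were called in each comparison, CNN1 (adjusted p = 0.0593 and 0.0568) and ACTG2 (0.129 and 0.135) being lost, and without its left eye all 10 were. In a fit of the perimacula and periphery libraries alone 8 were called, and in a fit of the nasal and periphery libraries alone 6. Among all genes these fits called 4615 of 15482 and 5228 of 15399 in either direction.

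The fovea/macula against its neighbours gave a smaller difference. No contractile gene was called between fovea/macula and perimacula, where only 0.0447% of all genes were called, or between fovea/macula and the nasal location, where 0.361% were. In each comparison 3 of the 10 genes had an unadjusted p under 0.05 in edgeR, and DESeq2 called 1, MYLK. Among all genes DESeq2 called 314 of 15674 against the perimacula and 490 of 15789 against the nasal location. All 10 log2 fold changes were positive, from 0.34 to 0.91 against the perimacula and from 0.17 to 0.96 against the nasal location. MYLK had 714, 642, 487 and 469 CPM at the perimacula and 700.5, 674, 635 and 369 CPM at the nasal location. Every one of these values was below the lowest foveal eye, and the log2 fold changes were 0.86 (SE 0.20, adjusted p = 0.162) and 0.70 (SE 0.20, adjusted p = 0.144). ACTA2 had 1644, 1343, 1247 and 1232 CPM at the perimacula and 1654, 1328, 1669 and 879 CPM at the nasal location, all below its foveal eyes. Its log2 fold changes were 0.86 (SE 0.33, adjusted p = 0.379) and 0.73 (SE 0.32, adjusted p = 0.300). When only the 8 libraries of fovea/macula and perimacula were fitted, 5 genes were called, namely ACTA2, MYH11, TAGLN, ACTG2 and MYLK, with adjusted p from 0.0224 to 0.0454. That fit called 357 of all 15215 genes tested. In the fit that also held the periphery, none of the 10 genes was called when any 1 of the 4 eyes was left out. The right eye of RM03 and the left eye of RM04 had the perimacular libraries rich in Schwann cell markers. Without either of them 0 of all genes tested were called, so these fits cannot show the part of those libraries. Both neighbouring locations were sequenced on the same flow cells as the fovea/macula.

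By mean level the fovea/macula was first and the periphery last, with the perimacula and the nasal location in between. The step from the fovea/macula to its neighbours was not called in the edgeR fits that held the periphery. No contractile gene was called between perimacula and nasal location, where 3.07% of all genes were, and none had an unadjusted p under 0.05 in edgeR or was called by DESeq2. The foveal libraries did not overlap with the perimacular ones for ACTA2, MYH11, ACTG2 and MYLK, in a comparison where 1.93% of all genes were apart in that direction. Taken eye by eye, the fovea/macula was the highest of the 4 locations in all 4 eyes for ACTA2, MYH11, TAGLN, CNN1, LMOD1, ACTG2 and MYLK, in 3 eyes for DES and SYNPO2, and in 2 eyes for SMTN. The periphery was the lowest in all 4 eyes for every gene but SMTN, for which it was the lowest in 3.

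The spread between eyes was itself shared by most of the genes. At the periphery the left eye of RM03 was the highest for all of the 10 genes, and the left eye of RM04 was the lowest for all but SYNPO2. The 10 genes summed there to 1134, 2389, 1770 and 732 CPM, and the 7 RPE markers to 19028, 3067, 10651 and 21418 CPM. These sums ranked the eyes in opposite orders, as they did at the fovea/macula and the perimacula but not at the nasal location. The part of the RPE content in the shared spread was not tested. Over the 16 RPE/choroid libraries, which share animals, eyes and locations, Pearson's r of log2 CPM between pairs of the 10 genes had a median of 0.896, from 0.528 for SMTN with SYNPO2 to 0.989 for ACTA2 with MYH11. After the mean of each location was taken off, the median of the 45 pairs was 0.705. ACTA2 with CNN1, at 0.985, and MYH11 with ACTG2, at 0.983, were then the closest pairs, and TAGLN with DES, at 0.0721, the most distant. The ratio of TAGLN to ACTA2 was not constant, at 27.1% to 32.5% of its level at the fovea/macula and 67.5% to 121% at the periphery. MYH11 went the other way, from 107% to 136% of ACTA2 at the fovea/macula to 42.3% to 79.7% at the periphery. These ratios are of estimated counts not divided by gene length, so only their change between locations can be read.

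The genes outside the group with the most similar profile were picked by Pearson's r with the mean standardized profile of the 10 genes, over the same 16 libraries and among 9747 genes with a mean of at least 10 CPM. They were ITIH3 (r = 0.983), CASQ2 (0.982), SGCA (0.972), RBPMS2 (0.971), MCAM (0.968), KCNA5 (0.965), MRVI1 (0.964), GRK5 (0.962), YWHAH (0.962) and LOC719599 (0.956). CASQ2, a calcium-binding protein of the sarcoplasmic reticulum, had means of 84.1 CPM at the fovea/macula, 43.9 CPM at the perimacula, 42.1 CPM at the nasal location and 10.3 CPM at the periphery. SGCA, alpha-sarcoglycan of the muscle dystrophin complex, had 17.5, 12.4, 11.03 and 3.53 CPM in the same order. GRK5 and YWHAH followed the profile with a smaller amplitude, since YWHAH had 170.5 CPM at the fovea/macula and 129 CPM at the periphery.

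Lists of genes from the rest of the contractile pathway gave the context in RPE/choroid between fovea/macula and periphery, where 44.1% of all genes were called in either direction. Of 11 myosin light chains, non-muscle myosins, tropomyosins and caldesmon, 6 were higher at the fovea/macula and 0 lower, with a median log2 fold change of 0.64. The largest changes were those of TPM1 (1.90, SE 0.17) and TPM2 (1.23, SE 0.15), tropomyosins that lie along the actin filament. Of 15 genes of myosin phosphatase, RhoA-ROCK and cGMP kinase signalling, 10 were higher and 1 lower, with a median of 0.55. PPP1R14A, the phosphatase inhibitor CPI-17, had 1.77 (SE 0.28) and PPP1R12B, a myosin-targeting subunit of the phosphatase, 1.52 (SE 0.22), while ARHGEF1, an exchange factor for RhoA, was lower with -0.34 (SE 0.11). Inhibitor and phosphatase subunit were thus both higher at the fovea/macula.

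Ion channels and adhesion proteins included changes as large as those of the contractile genes. Of 18 calcium and potassium channels and calcium store genes, 10 were higher and 0 lower, with a median of 0.92. KCNA5, a voltage-gated potassium channel, had 28.5, 31.6, 22.5 and 19.1 CPM at the fovea/macula against 1.96, 8.24, 1.74 and 0.232 CPM at the periphery (log2 fold change 3.45, SE 0.66), with no overlap. KCNMA1, the pore of the large-conductance potassium channel, had a log2 fold change of 2.25 (SE 0.28). Of 24 adhesion plaque, dense body and filament genes, 21 were higher and 1 lower, with a median of 1.13. CASQ2 (3.24, SE 0.52) and the integrin subunit ITGA8 (3.20, SE 0.65) had the largest changes in this list, in which CASQ2, a calcium store protein, was placed although it is no adhesion protein, and PGM5, a protein of adherens junctions, was lower with -0.71 (SE 0.26). Between fovea/macula and perimacula this list held SORBS2 (log2 fold change 0.78, adjusted p = 0.0397) and PALLD (0.74, adjusted p = 0.0349), named after their values were seen, which are 2 of the 7 genes called in that comparison.

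Transcriptional regulators and receptors were less uniform. Of 19 genes of the MYOCD-SRF-MRTF and Notch systems, 11 were higher at the fovea/macula and 0 lower, with a median of 0.89. MYOCD, myocardin, the coactivator that drives smooth muscle genes, had 18.4, 21.6, 19.5 and 18.9 CPM against 2.62, 4.80, 3.02 and 2.91 CPM. Its groups were far apart and tight, and the log2 fold change was 2.68 (SE 0.24, adjusted p = 1.34e-05). SRF, its DNA-binding partner, had a log2 fold change of 1.59 (SE 0.11). Of 18 receptors of smooth muscle agonists, 6 were higher and 3 lower, with a median of 0.17. NPR3, the natriuretic peptide clearance receptor, had 6.92, 6.68, 0.901 and 1.48 CPM at the fovea/macula against 0.317, 0.287, 0 and 0.0869 CPM, and its log2 fold change of 4.66 (SE 0.46) rested on few peripheral counts. The muscarinic receptors went opposite ways, CHRM2 being higher (2.25, SE 0.43) and CHRM3 lower (-1.13, SE 0.17) at the fovea/macula. The adrenoceptor ADRA1A was lower too (-1.46, SE 0.46). CHRM3 was also the 1 receptor called between fovea/macula and perimacula (log2 fold change -1.32, adjusted p = 0.0349), again named after its values were seen.

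**Figure D2:**
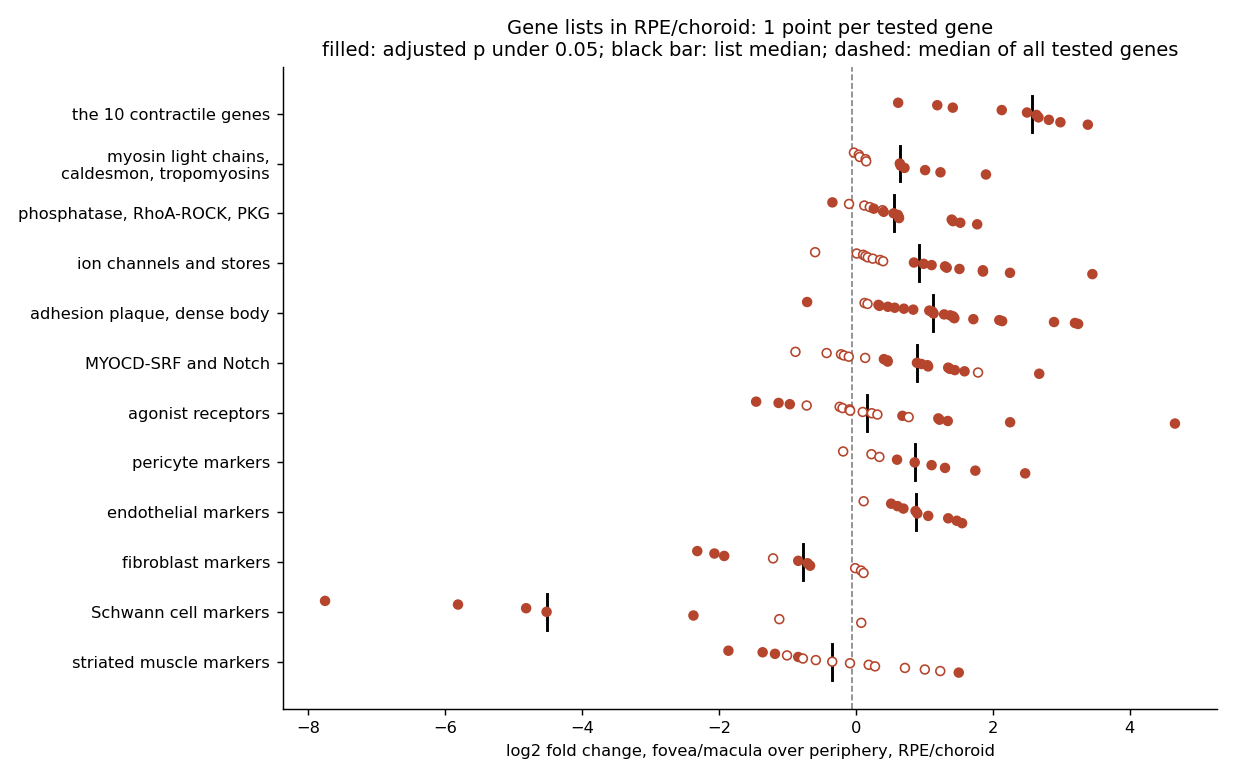
Log2 fold change of fovea/macula over periphery in RPE/choroid for each tested gene of 12 lists. Filled points passed an adjusted p under 0.05, black bars are list medians and the dashed line is the median of all tested genes; the 10 contractile genes have a median of 2.57 and the fibroblast and Schwann cell markers lie mostly below 0.

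Markers of other cell types moved with the contractile genes. Of 9 pericyte markers tested, 6 were higher at the fovea/macula and 0 lower, with MCAM (2.47, SE 0.23) and CSPG4 (1.74, SE 0.21) at the head. The pericyte markers summed to 1416 to 1854 CPM at the fovea/macula and to 634 to 1101 CPM at the periphery, with means of 1631 and 886 CPM. Much of this difference was MCAM, with means of 594 and 115 CPM, which was also among the 10 genes of most similar profile. Of 10 endothelial markers 9 were higher, led by PECAM1 (1.55, SE 0.14) and EMCN (1.47, SE 0.11), and their sums were 1937 to 2789 CPM against 1240 to 1684 CPM. The lowest foveal sum was above the highest peripheral sum in both lists.

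Fibroblast markers went the other way, 6 of 10 being lower at the fovea/macula and 0 higher, with LUM (-2.32, SE 0.55) and DCN (-2.07, SE 0.36) changed most. Their sums were 3791 to 6031 CPM at the fovea/macula and 9678 to 17227 CPM at the periphery. Of 7 Schwann cell markers 5 were lower at the fovea/macula, with DRP2 (-7.75, SE 1.94) and PMP2 (-5.81, SE 1.58) changed most, and the sums were 161 to 206 CPM against 549.8 to 11854 CPM. In the periphery the left eye of RM03 had the highest fibroblast and Schwann cell sums and also the highest level of every contractile gene among the 4 peripheral eyes. The part of these other markers in the contractile gene result was not tested. Without that eye 10 of the 10 genes were called between fovea/macula and periphery. As it held the highest peripheral level of each gene, leaving it out does not test the part of these markers.

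The other marker lists had fewer calls or calls in both directions. Of 15 striated muscle markers tested 1, TTN, was higher (1.502, SE 0.21) and 4 were lower, led by MYH1 (-1.86, SE 0.58) and TNNT3 (-1.36, SE 0.31). The sums of the 19 striated muscle markers found were 41.8 to 63.2 CPM against 43.2 to 51.9 CPM. Of these CKM, MYH2, MYH13, MYL1 and MB were under 1 CPM in every RPE/choroid library, and each of the others reached 1 CPM in at least 1. No RPE marker was called higher, and 1 of 7, SERPINF1 (-0.74, SE 0.15), was lower. Of 6 melanocyte markers DCT (1.09, SE 0.25) was higher and PMEL (-1.03, SE 0.11) and TYRP1 (-0.39, SE 0.09) were lower. Of 7 macrophage markers LYVE1 (1.17, SE 0.26) and CSF1R (0.50, SE 0.14) were higher and AIF1 (-1.23, SE 0.11) and CD14 (-0.79, SE 0.07) lower. No rod marker was called, although their median log2 fold change was -2.02 and they summed to 47.2 to 490 CPM at the fovea/macula and to 125 to 959 CPM at the periphery.

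In the retina the contractile genes did not move as a group. Foveal means were 134 CPM for MYLK, 107 CPM for LMOD1 and 43.3 CPM for SMTN, against 7.76 CPM for ACTA2 and 0.267 CPM for CNN1. Which cells these levels came from was not tested. Between fovea/macula and periphery 7 of the 10 were called, 4 higher and 3 lower at the fovea/macula. Of all genes tested 67.0% were called in either direction, so this count is not particular to the contractile genes. The median log2 fold change was 0.36, against -0.06 over all genes. MYLK had 143, 144, 128 and 122 CPM at the fovea/macula and 80.6, 61.5, 48.7 and 42.2 CPM at the periphery. All foveal eyes were higher, the fovea/macula was the highest location in 4 of 4 eyes, and the log2 fold change was 1.29 (SE 0.13, adjusted p = 3.04e-06). SYNPO2 had 5.39, 4.95, 6.60 and 7.16 CPM at the fovea/macula against 1.83, 1.49, 2.42 and 1.39 CPM at the periphery, and it too fell from fovea/macula through perimacula to periphery in 4 of 4 eyes (log2 fold change 1.80, SE 0.23, adjusted p = 2.51e-05).

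**Figure D3:**
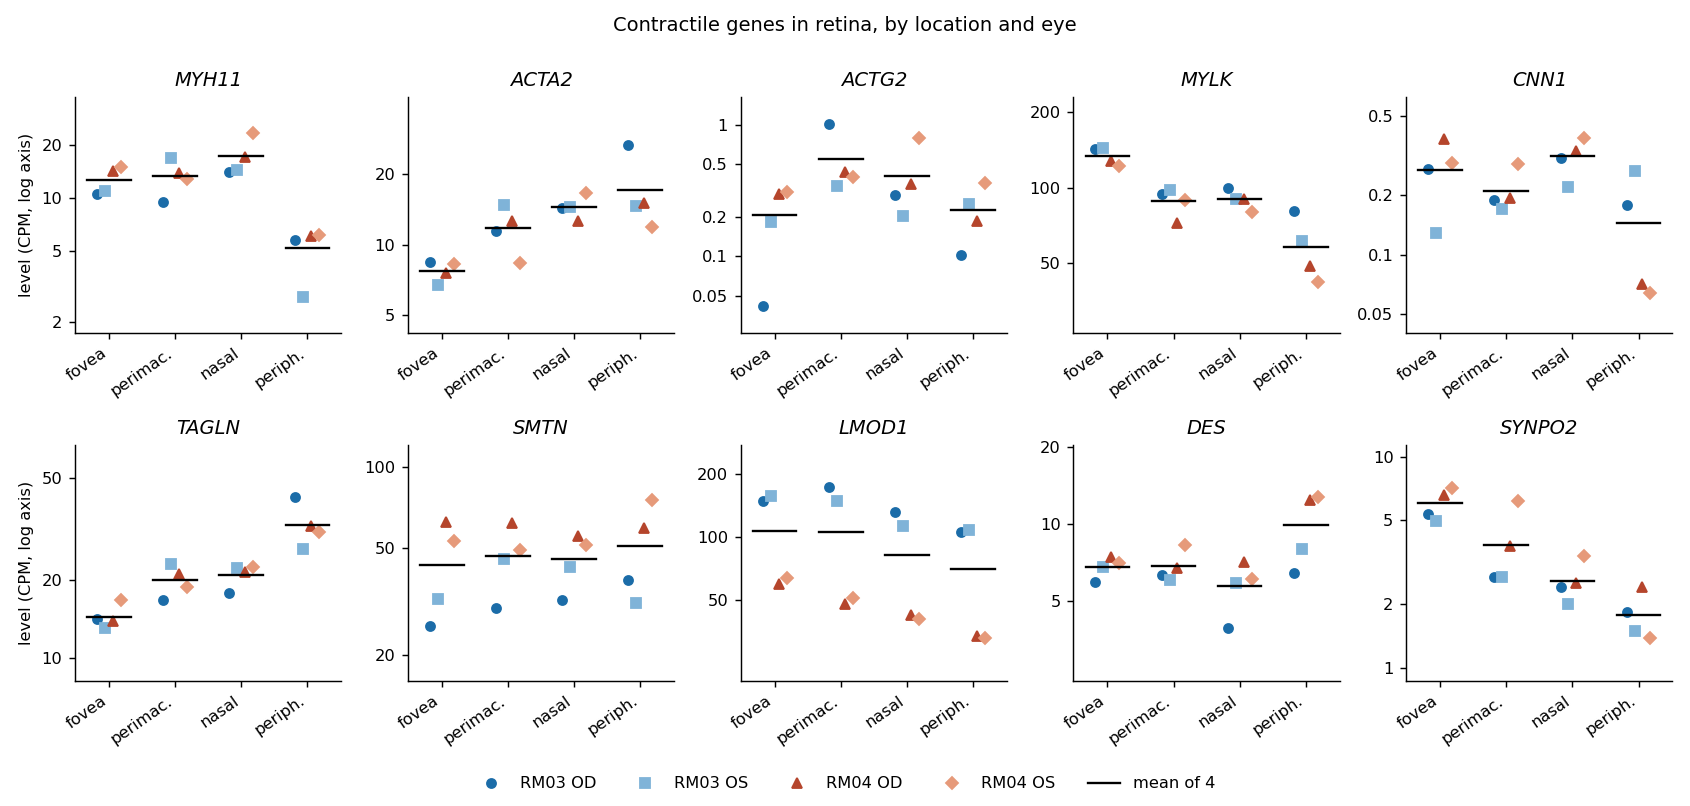
Level of each contractile gene in retina in CPM on a log axis, by location, with points for the 4 eyes and lines for the mean of 4. MYLK and SYNPO2 fall from fovea to periphery, ACTA2 and TAGLN lie lowest at the fovea, and CNN1 and ACTG2 stay near or below 1 CPM.

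ACTA2 and TAGLN had the opposite order in the retina. TAGLN had 14.1, 13.03, 13.9 and 16.7 CPM at the fovea/macula and 42.0, 26.4, 32.5 and 30.7 CPM at the periphery. The groups were apart, the level went up from fovea/macula through perimacula to periphery in 4 of 4 eyes, and the log2 fold change was -1.13 (SE 0.14, adjusted p = 2.57e-05). ACTA2 had 8.46, 6.71, 7.57 and 8.30 CPM at the fovea/macula against 26.8, 14.6, 15.1 and 11.9 CPM at the periphery. Its groups were apart as well, with the right eye of RM03 well above the other peripheral eyes, and the log2 fold change was -1.04 (SE 0.22, adjusted p = 0.00108). DES was higher at the periphery, with 6.45, 7.98, 12.4 and 12.7 CPM against 5.95, 6.78, 7.44 and 7.06 CPM. Its groups overlapped (log2 fold change -0.44, SE 0.15, adjusted p = 0.0188), and the call was lost without either eye of RM04 (adjusted p = 0.0956 and 0.117).

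MYH11 did not follow ACTA2 in the retina. It had 10.6, 10.9, 14.1 and 15.03 CPM at the fovea/macula and 5.82, 2.76, 6.12 and 6.14 CPM at the periphery, which did not overlap (log2 fold change 1.35, SE 0.22, adjusted p = 0.000149). The perimacula had 9.52, 16.9, 13.8 and 12.9 CPM and the nasal location 14.01, 14.4, 17.1 and 23.3 CPM, so that the periphery alone was low. MYH11 had 125% to 187% of the ACTA2 level at the fovea/macula and 18.9% to 51.8% at the periphery, again without division by gene length. LMOD1 was higher at the fovea/macula (log2 fold change 0.77, SE 0.11, adjusted p = 5.83e-05), as the periphery was lowest within each of the 4 eyes, although the animals differed more than the locations. SMTN (-0.18, SE 0.14, adjusted p = 0.282), CNN1 (0.97, SE 0.49, adjusted p = 0.102) and ACTG2 (-0.05, SE 0.57, adjusted p = 0.947) were not called. Without the left eye of RM03 CNN1 was called (1.67, adjusted p = 0.0128). CNN1 had 0.0644 to 0.388 CPM and ACTG2 0.0415 to 1.01 CPM in retina, so their fold changes rest on few counts.

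Part of this order was also present between locations on the same flow cells. Between fovea/macula and perimacula 3 of the 10 genes were called against 35.2% of all genes, MYLK (0.65, SE 0.13) and SYNPO2 (0.73, SE 0.22) higher and TAGLN lower (-0.41, SE 0.14) at the fovea/macula. With the replicate block, in the paired fit, TAGLN was not called there (-0.42, adjusted p = 0.0618). Leaving out 1 eye, SYNPO2 was kept only without the left eye of RM04 (adjusted p 0.122 to 0.140 otherwise) and TAGLN only without the right eye of RM03 (0.0533 to 0.213 otherwise), while MYLK was called each time. Between fovea/macula and the nasal location 5 were called against 52.2% of all genes, LMOD1 (0.48, SE 0.09), MYLK (0.61, SE 0.12) and SYNPO2 (1.26, SE 0.21) higher and ACTA2 (-0.87, SE 0.21) and TAGLN (-0.51, SE 0.14) lower, TAGLN being lost without the right eye of RM04 (adjusted p = 0.0707). Perimacula and periphery differed in 6 of the 10 (background 50.3%) and the nasal location and periphery in 7 (48.7%), of which CNN1 and SYNPO2 were lost under the replicate block, leaving 5. Leaving out 1 eye, the first of these comparisons lost DES without 3 of the eyes (adjusted p 0.0606 to 0.129) and the second lost SYNPO2 without each eye (0.0654 to 0.162), and CNN1 (0.144 to 0.261) and LMOD1 (0.114 to 0.150) without each but the left eye of RM03. None was called between perimacula and nasal location in edgeR (1.49% of all genes), where 2 had an unadjusted p under 0.05 and DESeq2 called 1, LMOD1.

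The companion lists were mixed in the retina as well. Of all genes tested between fovea/macula and periphery 67.0% were called in either direction, so list counts near that share are not particular to a list. Between fovea/macula and periphery 5 of the 11 light chain, tropomyosin and caldesmon genes were higher at the fovea/macula and 6 lower (median log2 fold change -0.31). Of the 15 phosphatase, RhoA and cGMP kinase genes 6 were higher and 2 lower, of the 18 channel and store genes 8 and 3, and of the 24 adhesion and dense body genes 10 and 8. Of 18 tested MYOCD-SRF and Notch genes 10 were higher and 2 lower (median 0.60). MYOCD itself had 0.131 to 0.698 CPM over the 16 retina libraries, below every RPE/choroid library, the lowest of which had 2.62 CPM.

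Markers of other cells in the retinal punches moved with location as well. The 7 RPE markers summed to 366 to 529 CPM at the fovea/macula and to 1972 to 2844 CPM at the periphery. The 10 endothelial markers summed to 289 to 335 CPM against 564 to 693 CPM, the 9 pericyte markers to 76.9 to 81.5 CPM against 93.9 to 123 CPM, and the 10 fibroblast markers to 110.4 to 121 CPM against 149 to 176 CPM. All 4 sums were higher in every peripheral library than in every foveal one, as were the levels of ACTA2 and TAGLN. MYH11, MYLK and SYNPO2 were lower in every peripheral library. The pericyte sum had its highest mean at the nasal location, 124 CPM, and means of 105 CPM at both the perimacula and the periphery. ANPEP among the pericyte markers and COL3A1 among the fibroblast markers were under 1 CPM in all retina libraries. The part of these markers in the retinal differences was not tested.

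**Figure D4:**
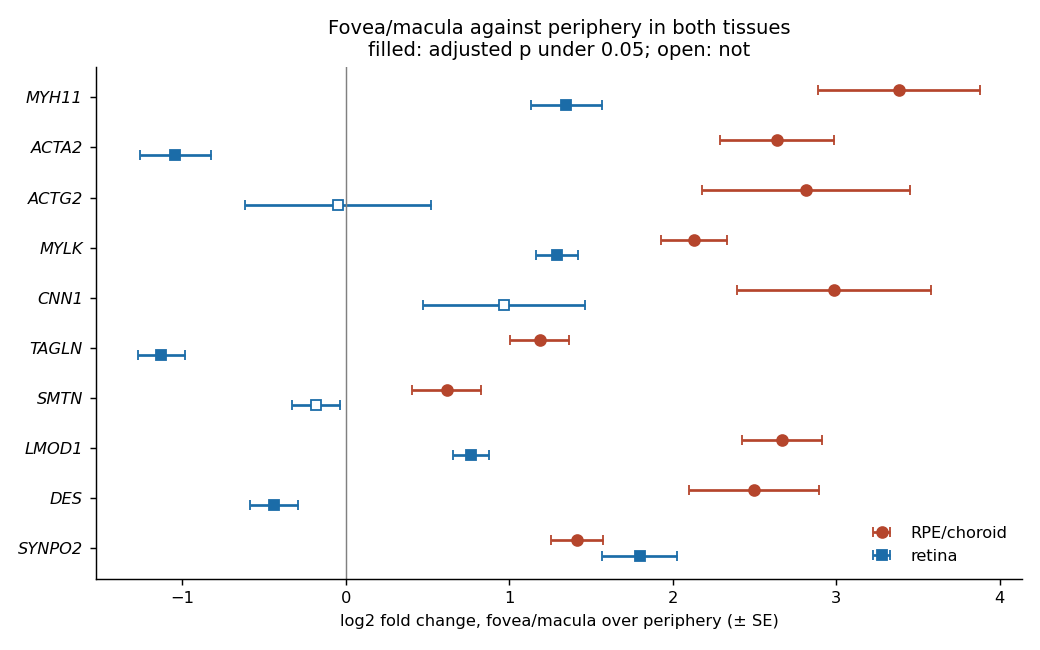
Log2 fold change of fovea/macula over periphery for each contractile gene, with SE, in RPE/choroid (circles) and retina (squares). Filled symbols passed an adjusted p under 0.05; all 10 genes lie above 0 in RPE/choroid, while in retina ACTA2, TAGLN and DES lie below 0 with filled symbols.

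The tissues differed in level by amounts that depended on the gene. At the fovea/macula all 10 genes were lower in retina than in RPE/choroid, as were 36.8% of all genes, and no gene overlapped between the tissues, against 31.2% of all genes apart in that direction. The RPE/choroid mean was 305 times the retina mean for ACTA2 and 222 times for MYH11. For ACTG2 and CNN1, which rested on 2 to 22 counts per foveal retina library, the ratios were 946 and 517. TAGLN had a ratio of 49.4, SYNPO2 11.7, DES 9.48, MYLK 7.50, LMOD1 3.04 and SMTN 1.999. All 10 genes were lower in retina at the perimacula (37.8% of all genes) and at the nasal location (38.6%) too. SMTN at the perimacula had the smallest of these differences (log2 fold change of retina over RPE/choroid -0.72, SE 0.32, adjusted p = 0.0464), and under the replicate block it was not called (-0.75, adjusted p = 0.0508). Without the right eye of RM03 SMTN was called neither there (adjusted p = 0.408) nor at the nasal location (0.112), and the calls were also lost without the left eye of RM04 at the perimacula (0.0758) and without its right eye at the nasal location (0.0507).

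At the periphery 7 of the 10 genes were lower in retina, where 37.1% of all genes were. DES (log2 fold change -0.38, SE 0.30, adjusted p = 0.255), LMOD1 (0.14, SE 0.27, adjusted p = 0.650) and SMTN (-0.38, SE 0.32, adjusted p = 0.297) were not called. LMOD1 had 106, 108, 33.3 and 32.6 CPM in peripheral retina and 47.1, 78.5, 63.6 and 28.4 CPM in peripheral RPE/choroid, so that the retina was higher in 3 of 4 eyes. Without the right eye of RM04 LMOD1 was called higher in retina (0.60, adjusted p = 0.0310), and without its left eye DES was called lower (-0.74, adjusted p = 0.0148). The ratio of ACTA2 fell from 305 at the fovea/macula to 24.3 at the periphery, and that of TAGLN from 49.4 to 10.3.

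The signed log2 fold change of fovea/macula over periphery was higher in RPE/choroid than in retina for 7 genes in a test of the interaction, in which 21.2% of all genes were called in this direction and 40.2% in either. ACTA2 had the largest difference, 3.71 on the log2 scale (SE 0.42, adjusted p = 1.35e-06), followed by DES with 2.96 (SE 0.43), ACTG2 with 2.85 (SE 1.02, adjusted p = 0.0304), TAGLN with 2.33 (SE 0.27), MYH11 with 2.05 (SE 0.56), LMOD1 with 1.94 (SE 0.38) and MYLK with 0.86 (SE 0.24). For MYH11, LMOD1 and MYLK the fold change was positive and called in both tissues. For ACTA2, DES and TAGLN it was positive in RPE/choroid and negative in retina, and the TAGLN values of 1.19 and -1.13 were of similar size. CNN1 (1.999, SE 0.95, adjusted p = 0.101), SMTN (0.75, SE 0.45, adjusted p = 0.197) and SYNPO2 (-0.36, SE 0.29, adjusted p = 0.350) were not called. Without the right eye of RM03 4 genes were called in place of 7, MYH11 (adjusted p = 0.0685), MYLK (0.0793) and ACTG2 being lost, and ACTG2 was lost without any 1 of the eyes (0.0505 to 0.0906). For fovea/macula against perimacula only ACTA2 differed between the tissues (1.42, SE 0.41, adjusted p = 0.0304, background 11.5%), a call lost without either eye of RM03 and without the right eye of RM04 (adjusted p 0.101 to 0.187). Against the nasal location ACTA2 (1.63, SE 0.40) and TAGLN (0.87, SE 0.30) had a higher signed fold change in RPE/choroid and SYNPO2 a higher one in retina (-1.04, SE 0.28), with 23.5% of all genes called. ACTA2 and TAGLN were called in retina only, where they were lower at the fovea/macula. TAGLN was lost there without the left eye of RM03 or either eye of RM04 (adjusted p 0.0828 to 0.218) and SYNPO2 without the right eye of RM04 (0.0590).

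The pairs of genes had no common direction in the retina. Over its 16 libraries Pearson's r between pairs had a median of -0.05, with 27 of 45 pairs below 0. ACTA2 with TAGLN was the closest pair (0.842) and LMOD1 with SMTN the most opposed (-0.872).

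That last pair separated the animals. In retina LMOD1 had 106 to 174 CPM in the 8 libraries of RM03 and 32.6 to 63.5 CPM in the 8 of RM04, with no overlap and a ratio of the means of 2.95. SMTN was the reverse, with 25.7 to 45.5 CPM in RM03 and 49.1 to 75.7 CPM in RM04, and RM04 was 1.69 times higher. In RPE/choroid LMOD1 was also higher in RM03 at all 4 locations, 1.36 to 1.87 times, whereas SMTN was higher in RM03 and not in RM04 there, 1.10 to 1.74 times. With 2 animals these values are a description. The fits carried the monkey as a covariate, and without it LMOD1 was no longer called in retina between fovea/macula and periphery (log2 fold change 0.65, adjusted p = 0.345).

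**Figure D5:**
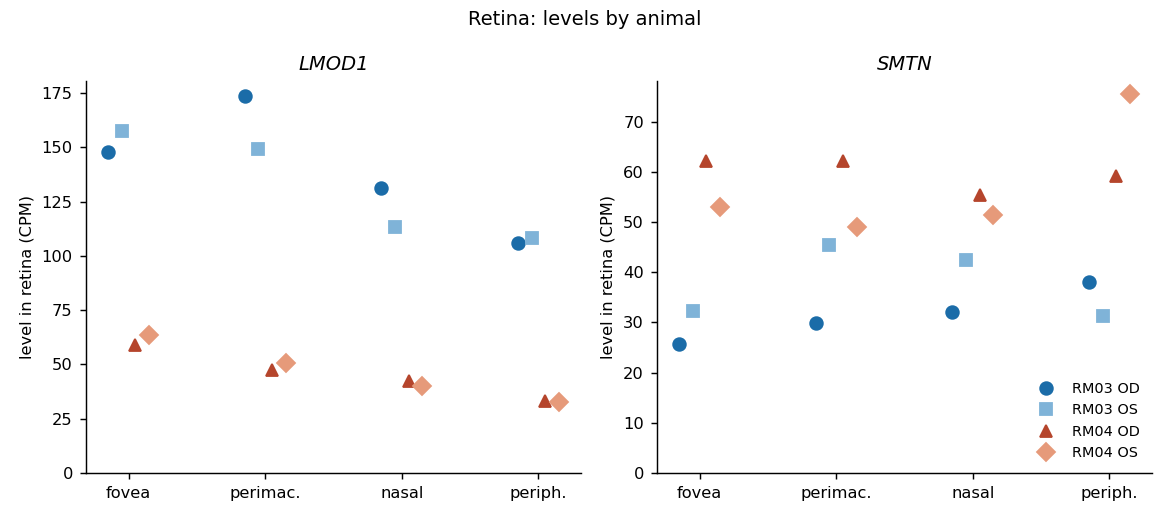
LMOD1 and SMTN in retina in CPM by location, with the eyes of RM03 in blue and those of RM04 in red. At every location LMOD1 is higher in both eyes of RM03 and SMTN is higher in both eyes of RM04.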

How the data were processed

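The deposited tables hold, per sequencing lane, estimated counts per gene: the authors quantified poly-A selected, paired-end reads with Salmon 0.13 on Mmul_8.0.1 and imported them with tximport as length-scaled TPM, whose lane sums are 7932259 to 39439054, so they are estimated counts and not TPM. The 136 lanes were summed to 32 libraries and rounded. Fovea/macula, perimacula and nasal libraries had 5 lanes on 2 flow cells and periphery libraries 2 lanes on 1 other. RNA integrity numbers were above 6.5.

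Genes were tested with edgeR 4.0.16 (quasi-likelihood, TMM, filterByExpr with a minimum count of 10; R 4.3.3, limma 3.58.1) with the monkey as covariate, as in the design of the study, and Benjamini-Hochberg adjustment at 0.05. Nasal libraries entered only comparisons with that location. SE is the log2 fold change divided by the root of F. Levels are CPM of the library total. Correlations used log2 CPM at a prior count of 2. The scripts were tested on simulated data. Alternatives were DESeq2 1.42.0, RLE factors, library totals, other count filters, other covariates, other sample sets and leaving out each eye. An exact permutation test of 4 against 4 eyes cannot give a two-sided p below 0.0286 and was not used.

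Same-numbered libraries came from the same eye, and their deviations from the group means correlated at 0.158 to 0.645 in RPE/choroid and 0.111 to 0.863 in retina (24 pairs each), so the eye was also fitted as a block.

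The 10 genes and all lists were chosen with earlier results of these data known. Named were all 10 genes, the 2 most changed called genes per direction in each list in RPE/choroid between fovea/macula and periphery, and the 10 genes of most similar profile. Where a symbol had several entries the one with most counts was used. Gene positions and sequences were not used here.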

Additional observations from a re-analysis of the deposited data

Results flagged for a closer look

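Of 80 groups of 4 libraries tested (10 genes in 8 groups), 3 held a library whose gap to its neighbour exceeded Dixon's 95% critical value, and chance gives about 4. MYH11 in peripheral retina was 2.76 CPM in the left eye of RM03, against a group median of 5.97 CPM. CNN1 in perimacular RPE/choroid was 119 CPM in the right eye of RM03, against a median of 79.3 CPM, in the same library that held 6642 CPM of Schwann cell markers. ACTG2 in perimacular retina was 1.01 CPM in the right eye of RM03, against a median of 0.419 CPM.

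The change between locations differed between RPE/choroid and retina in 11 tests of the interaction. For fovea/macula over periphery the differences on the log2 scale were 3.71 for ACTA2, 2.85 for ACTG2, 2.96 for DES, 1.94 for LMOD1, 2.05 for MYH11, 0.86 for MYLK and 2.33 for TAGLN. For fovea/macula over perimacula the difference was 1.42 for ACTA2. For fovea/macula over the nasal location it was 1.63 for ACTA2, 0.87 for TAGLN and -1.04 for SYNPO2.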

How the results depend on the processing

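Single-gene values were followed for the genes called in each comparison. Genes not called were followed only for fovea/macula against periphery (both tissues and their interaction), RPE/choroid fovea/macula against its neighbours, and the tissues at the periphery. Calls gained in other comparisons are therefore not among them. Of these 1618 values under the alternatives, 1524 kept their direction and their side of the threshold. The call was lost by 78 and gained by 11, and 5 reversed. The cause of these changes was not tested. The reversals were of values that were not called and arose on leaving out 1 eye. The log2 fold change of ACTG2 in retina between fovea/macula and periphery then ranged from -0.33 to 0.11. Those of retina over RPE/choroid at the periphery ranged from -0.14 to 0.60 for LMOD1 and from -0.75 to 0.15 for SMTN. The number of contractile genes called in RPE/choroid between fovea/macula and periphery was 9 or 10 throughout, SMTN being the gene lost. Between fovea/macula and perimacula in RPE/choroid it was 0, but 1 with DESeq2 and 5 with only the compared groups, and against the nasal location 0, but 1 with DESeq2. In retina it was 3 between fovea/macula and perimacula, 5 with DESeq2 and with the nasal libraries included, 1 without covariate and 1 to 3 without 1 eye. Between nasal location and periphery it was 7, 4 with at least 10 counts in every library or without covariate, and 4 to 6 without 1 eye. Between perimacula and nasal location it was 0, and 1 with DESeq2. The tissue difference was called for 7 genes between fovea/macula and periphery, 4 to 6 without 1 eye. It was called for 1 against the perimacula, 2 with DESeq2, 0 without covariate and 0 to 1 without 1 eye, and for 3 against the nasal location, 1 to 3 without 1 eye. In the paired fits, with the eye as the replicate block, the counts were 9 for fovea/macula against periphery in RPE/choroid and 7 in retina, and the block changed no call other than those given with the results. With TMM-normalized CPM 80 of 80 levels moved by less than 1 SD. The periphery and its flow cell cannot be told apart, and 2 animals limit every comparison.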
